A study of Nothobranchius furzeri with 9 samples.

Results

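Liver maturation was followed from 6 to 12 weeks of age in the African turquoise killifish (Nothobranchius furzeri), an annual fish with a very short life. All fish were wild-type males of the inbred GRZ strain. The comparison sets 3 adult libraries (12 weeks) against 3 young ones (6 weeks), which are 6 of the 9 bulk RNA libraries of the study, chosen by their age labels. All genes were considered, and the old libraries (3 libraries, 23 to 24 weeks) entered the filter on low counts, the scaling and the estimate of the spread but no comparison. No group carried a transgene, a drug or a deletion. The labels number the replicates without saying whether each came from its own fish, so the p-values measure the spread between these samples, which may be technical.

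The liver makes most proteins of the blood plasma, breaks down amino acids, stores and releases glucose, and makes bile acids, cholesterol and lipoproteins. Hepatocytes do most of this work and lie beside bile duct cells, macrophages, stellate cells and the endothelium of the sinusoids. In many bony fish, acini and islets of the pancreas lie along or inside the liver. GRZ fish mature sexually within weeks of hatching and go on growing afterwards.

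Library depth was 21674590, 33951438 and 22603384 estimated counts in young replicates 1, 2 and 3 and 26890914, 22079423 and 26974448 in the adult ones. Young replicate 1 stood apart before any gene was compared. Ribosomal RNA genes took 29.65% of its counts (95% Wilson interval 29.63 to 29.67%, for counting error only), against 4.52 and 4.74% in young replicates 2 and 3 and 2.22 to 2.51% in the adult libraries. Most of this was mitochondrial ribosomal RNA, at 27.58% of the counts of young replicate 1 and 3.94 and 4.45% of those of young replicates 2 and 3. Protein genes of the mitochondrial genome took 7.22% in young replicate 1, 1.35 and 1.49% in the other young libraries and 0.89 to 1.11% in the adult ones. Across genes, Pearson's r of log2 CPM was 0.753 and 0.808 between it and young replicates 2 and 3, 0.904 between those replicates, and 0.948 to 0.952 among the adult libraries. The tissue label was borne out in each library: 8 of 8 hepatocyte markers found in the table had counts, and they took 14.5 to 23.0% of the counts of the young libraries and 17.3 to 21.8% of the adult ones. Each list median below is therefore given with and without young replicate 1. Fitted fold changes are given both ways, or only in the setting stated, mostly without that library. Where a gene is given by its levels alone, that library is the first value. Its higher ribosomal RNA share moves with the young age, and its part in the results was not tested beyond leaving the library out. The old libraries, which entered the fit, had shares of 21.98, 15.0 and 7.07%. Leaving out young replicate 1 therefore does not take every library with a high share out of the fit.

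**Figure D1:**
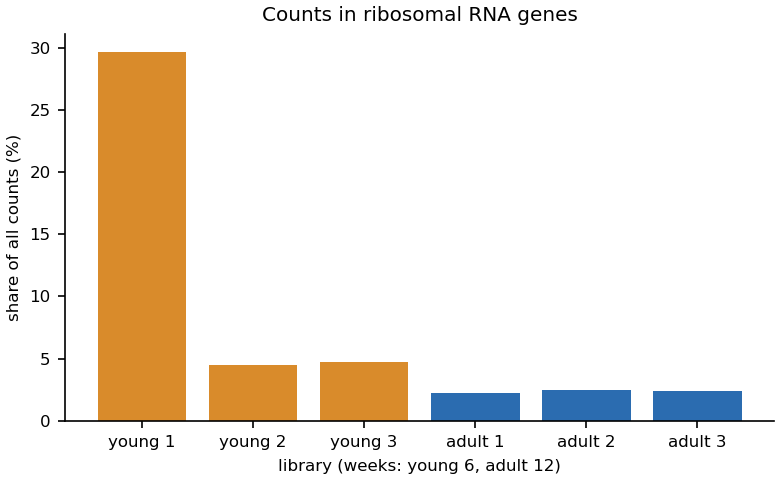
Share of all estimated counts in ribosomal RNA genes (percent, vertical axis) in each young (orange) and adult (blue) library. Young replicate 1 reaches 29.65%, and the other young and adult libraries lie between 2.22 and 4.74%.

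A secreted protease and a water channel rose between the 2 ages, and they were the only genes of 13971 tested to pass the edgeR test. HTRA1B (ENSNFUG00015004780, chromosome 12, 10824105 to 10865694, plus strand, as the deposited table gives it) encodes a secreted serine protease of the HtrA family that acts on extracellular matrix. It measured 1.2, 1.04 and 0.351 CPM at 6 weeks and 43.4, 40.2 and 126 CPM at 12 weeks, in the order of replicates 1, 2 and 3, which is also the order of all values below. Values are CPM, counts scaled to library sizes that were adjusted with TMM factors. Each adult library lay far above each young one, and adult replicate 3 stood highest. The log2 fold change, adult over young, was 6.34 ± 0.66 (SE, adjusted p = 0.0158 by edgeR), or 6.60 without young replicate 1. The water channel gene is ENSNFUG00015023172, on the minus strand of chromosome 13 from 18441388 to 18445154. The table describes it as aquaporin-9-like, of the channels that pass glycerol as well as water. It measured 0.491, 0.927 and 0.175 CPM at 6 weeks and 23.4, 27.7 and 35.3 CPM at 12 weeks, and its log2 fold change was 5.71 ± 0.57 (SE, adjusted p = 0.0158 by edgeR), or 5.64 without young replicate 1. It too was separate in every library of the 2 ages.

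These 2 genes are 0.0143% of the genes tested, and 0 genes were called lower. At an unadjusted p under 0.05 stood 626 genes higher in adult liver (4.48%) and 737 lower (5.28%). The calls depended on the old libraries: both genes had an adjusted p of 0.0548, 0.0576 and 0.0581 in edgeR when old replicate 1, 2 or 3 was left out, and the fit on the 6 young and adult libraries alone, which tested 13315 genes, called 0, with 1386 at an unadjusted p under 0.05. HTRA1B also missed the threshold without young replicate 2 (edgeR adjusted p = 0.0531) or 3 (0.0732), and the aquaporin gene without adult replicate 3 (0.0627). Their adjusted p-values spanned 4.26e-23 to 0.266 (HTRA1B) and 4.07e-23 to 0.266 (aquaporin) across the alternatives, smallest with DESeq2. The number of genes called higher was 12 without adult replicate 2 and 1 without young replicate 3 or adult replicate 3, and DESeq2 called 244 genes higher and 144 lower.

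Without young replicate 1, 6 genes passed the edgeR test as higher in adult liver (0.0411% of 14583 tested) and 0 as lower, and both genes above were among the 6. At an unadjusted p under 0.05 were then 760 higher (5.21%) and 451 lower (3.09%). The gene for the citrate transporter SLC13A5, which brings citrate from blood into hepatocytes, measured 7.86, 2.34 and 0.842 CPM at 6 weeks and 29.2, 23.0 and 44.4 CPM at 12 weeks. Its log2 fold change was 3.15 ± 0.68 (SE, adjusted p = 0.160 by edgeR) with all libraries and 4.32 ± 0.52 (SE, adjusted p = 0.0442 by edgeR, 0.000441 to 0.513 over all alternatives) without young replicate 1. IGFBP1A encodes a secreted binding protein of insulin-like growth factors and measured 5.57, 0.155 and 0.386 CPM at 6 weeks and 30.7, 11.9 and 37.8 CPM at 12 weeks. Young replicate 1 was the highest of the young libraries for both genes, and no young library reached an adult one. The log2 fold change of IGFBP1A was 3.77 ± 1.13 (SE, adjusted p = 0.335 by edgeR) with all libraries and 6.68 ± 0.80 (SE, adjusted p = 0.0442 by edgeR, 0.0132 to 0.880 over all alternatives) without young replicate 1. The gene described as interleukin-1 receptor-like 2 (ENSNFUG00015008926), of a family of cytokine receptors, measured 35.3, 8.59 and 6.52 CPM at 6 weeks and 59.7, 58.4 and 103 CPM at 12 weeks. Its log2 fold change was 2.14 ± 0.59 (SE, adjusted p = 0.311 by edgeR) with all libraries and 3.29 ± 0.35 (SE, adjusted p = 0.0442 by edgeR, 0.0248 to 0.871 over all alternatives) without young replicate 1. The sixth gene has no symbol or description and is not named.

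Outside the adjusted threshold, the 3 adult libraries all lay above the 3 young ones for 1681 genes (12.0% of those tested) and below them for 1353 (9.68%). Against young replicates 2 and 3 only, these numbers were 2496 (17.9%) and 2370 (17.0%), and they were 2776 and 2512 without young replicate 2 and 2609 and 2198 without young replicate 3. They are descriptions, since 3 against 3 libraries cannot give an exact two-sided permutation p under 0.1 for any 1 gene. The word separate below means this absence of overlap. Where a share of a list follows in brackets, the shares of all genes to compare are 12.0% higher and 9.68% lower. Without young replicate 1 those shares are 17.9% and 17.0%. The examples named below are the members of each list with the smallest p, or genes taken by the rule stated with the processing, so they are not typical of their list. None of the genes described from here on passed the edgeR test with all libraries.

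The 10 separate genes named as higher in adult liver had edgeR adjusted p-values from 0.0881 to 0.119, and DESeq2 called all 10. They were picked for a small p in the same counts, so the DESeq2 calls are no separate support. The gene described as proline dehydrogenase 1a (ENSNFUG00015009075), the enzyme of the first step of proline breakdown in mitochondria, measured 0, 0.375 and 0.386 CPM at 6 weeks and 23.4, 18.3 and 42.3 CPM at 12 weeks. It was close to 0 in each young library and had a log2 fold change of 6.63 ± 0.93 (SE, adjusted p = 0.0881 by edgeR), or 6.19 without young replicate 1. The gene fgf19, whose product in mammals is a gut hormone that holds down bile acid synthesis in the liver, measured 0, 0.243 and 0 CPM at 6 weeks and 5.90, 6.11 and 24.4 CPM at 12 weeks. It had counts in 1 of the 3 young libraries and in each adult one. A gene described as coagulation factor XI-like (ENSNFUG00015012644), named for a protease of the intrinsic clotting pathway in mammals, measured 3.06, 4.79 and 6.80 CPM at 6 weeks and 30.9, 39.7 and 104 CPM at 12 weeks. The log2 fold change of this gene was 3.57 ± 0.51 (SE, adjusted p = 0.0881 by edgeR), or 3.33 without young replicate 1.

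Growth factors were also among these genes. IGF1, the hormone that liver releases under growth hormone, measured 5.40, 5.94 and 4.63 CPM at 6 weeks and 15.3, 18.1 and 18.5 CPM at 12 weeks. The libraries of an age lay close together without overlap, and the log2 fold change was 1.70 ± 0.29 (SE, adjusted p = 0.119 by edgeR), or 1.71 without young replicate 1. The gene described as fibroblast growth factor 1 (ENSNFUG00015024647), a growth factor for many cell types, measured 6.50, 12.5 and 4.49 CPM at 6 weeks and 39.4, 42.8 and 52.0 CPM at 12 weeks. That made a log2 fold change of 2.51 ± 0.43 (SE, adjusted p = 0.119 by edgeR), or 2.40 without young replicate 1.

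Genes annotated for defence, matrix, lysosome and lipid carriers made up the rest of the higher genes. The gene described as toll-like receptor 5 (ENSNFUG00015005529), a family that senses bacterial flagellin, measured 31.9, 89.6 and 109 CPM at 6 weeks and 955, 524 and 559 CPM at 12 weeks. Young replicate 1 was lowest, and the log2 fold change was 3.15 ± 0.51 (SE, adjusted p = 0.105 by edgeR), or 2.78 without young replicate 1. MFAP4 (ENSNFUG00015006349), named for a fibrinogen-domain protein of matrix fibrils in mammals, measured 25.1, 20.8 and 18.3 CPM at 6 weeks and 374, 125 and 327 CPM at 12 weeks. The cells that express it here are not known from these data. It has close copies in fish, so the split of reads between copies is uncertain. The lysosomal mannosidase gene man2b1 measured 15.1, 28.3 and 34.3 CPM at 6 weeks and 134, 77.1 and 132 CPM at 12 weeks. The apolipoprotein D gene apoda.2, for a lipocalin that binds small lipids, measured 6.11, 6.36 and 18.6 CPM at 6 weeks and 571, 62.9 and 226 CPM at 12 weeks. Adult libraries of apoda.2 and MFAP4 differed widely among themselves, with adult replicate 2 the lowest in both. Among the adult libraries, the toll-like receptor gene, MFAP4, man2b1 and apoda.2 had the same order as the summed markers of exocrine pancreas, at 78515, 6300 and 24170 CPM. The part of that tissue in these values was not tested. The methionine cycle enzyme gene bhmt, the last of the 10, is described with the amino acid genes.

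The 10 separate genes named as lower in adult liver had edgeR adjusted p-values from 0.119 to 0.216. DESeq2 called all 10, again on the counts by which they were picked. The brain-type creatine kinase gene ckba, whose enzyme buffers ATP, measured 109.7, 109 and 105 CPM at 6 weeks and 39.5, 41.5 and 36.2 CPM at 12 weeks. Young replicate 1 lay close to the other young libraries here, and the log2 fold change was -1.47 ± 0.30 (SE, adjusted p = 0.137 by edgeR), or -1.46 without young replicate 1. The regulator gene pfkfb4b, whose enzyme sets the level of the glycolytic activator fructose 2,6-bisphosphate, measured 567, 249 and 166 CPM at 6 weeks and 70.8, 88.3 and 65.5 CPM at 12 weeks. Its log2 fold change was -2.13 ± 0.44 (SE, adjusted p = 0.141 by edgeR) with all libraries and -1.47 ± 0.28 (SE, adjusted p = 0.175 by edgeR, 0.000909 to 0.611 over all alternatives) without young replicate 1, which was the highest library. Glutaredoxin (glrx), which reduces protein disulfides with glutathione, measured 467, 172 and 182 CPM at 6 weeks and 68.5, 71.9 and 57.3 CPM at 12 weeks and was likewise highest in young replicate 1.

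Membrane and cytoskeleton genes followed. MAP1A, which binds microtubules, measured 58.3, 28.4 and 38.9 CPM at 6 weeks and 10.4, 9.17 and 7.66 CPM at 12 weeks. ATP2B1A, a pump that exports calcium across the plasma membrane, measured 65.3, 37.4 and 38.4 CPM at 6 weeks and 19, 12.1 and 15.4 CPM at 12 weeks. The gene rh50, of the Rh glycoproteins that carry ammonia, measured 22, 24.4 and 34.7 CPM at 6 weeks and 7.43, 7.42 and 4.73 CPM at 12 weeks. All adult libraries of these 3 genes lay under every young one, and without young replicate 1 the log2 fold changes were -1.88, -1.29 and -2.18. The gene tm4sf4, for a membrane protein with 4 spans, measured 158, 203 and 237 CPM at 6 weeks and 103, 91.8 and 82.1 CPM at 12 weeks.

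Lipid genes completed the lower set. A gene described as apolipoprotein Eb-like (ENSNFUG00015001521), a lipoprotein component that receptors bind and that has close copies in fish, measured 535, 169 and 102 CPM at 6 weeks and 28.9, 21.5 and 43.7 CPM at 12 weeks. Young replicate 1 was the highest, and the log2 fold change was -2.1 without it. PMVK, an enzyme of the mevalonate pathway to cholesterol, measured 189, 111 and 175 CPM at 6 weeks and 60.4, 50.5 and 26.2 CPM at 12 weeks. The gene described as ethanolamine kinase 1-like (zgc:113516), for the entry of ethanolamine into phospholipids, measured 362, 179 and 247 CPM at 6 weeks and 94.4, 113 and 86.1 CPM at 12 weeks.

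**Figure D2:**
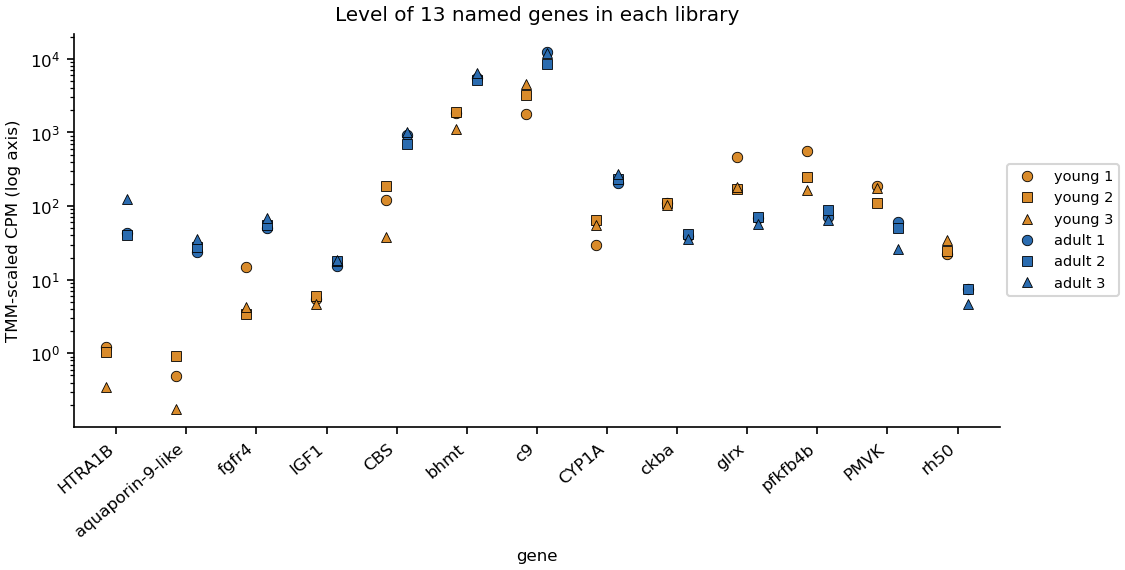
Level of 13 named genes in each library, in TMM-scaled CPM on a log axis. Orange marks young and blue adult libraries, and the shapes mark replicates 1, 2 and 3. HTRA1B reaches at most 1.2 CPM in young and at least 40.2 CPM in adult liver, and the 5 genes on the right, from ckba to rh50, lie lower in each adult library.

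Genes for proteins that hepatocytes secrete into plasma were higher in adult liver as a group, with few members lower. Of 18 complement genes tested, 12 (66.7%) were separate and higher and 0 separate and lower. The median log2 fold change was 1.02 against -0.07 over all genes. Without young replicate 1, 15 (83.3%) were separate and higher, and the median was 1.12. Complement gene c9, for the pore-forming protein of the membrane attack complex, measured 1763, 3233 and 4501 CPM at 6 weeks and 12549, 8549 and 12044 CPM at 12 weeks. The gene c1r, for a protease of the first complex of the classical pathway, measured 108, 215 and 284 CPM at 6 weeks and 866, 864 and 1062 CPM at 12 weeks. The log2 fold change was 1.80 ± 0.37 (SE, adjusted p = 0.137 by edgeR), or 1.52 without young replicate 1, for c9 and 2.2 ± 0.42 (SE, adjusted p = 0.137 by edgeR), or 1.90 without young replicate 1, for c1r. The gene c4b, for the component that C1 cleaves, measured 809, 485 and 733 CPM at 6 weeks and 1642, 1883 and 1330 CPM at 12 weeks. C1QA, described in the table as a C1q subunit C-like gene and made by macrophages in mammals, measured 0.819, 0.442 and 2.1 CPM at 6 weeks and 10.9, 6.2 and 7.66 CPM at 12 weeks. Young replicate 1 was lowest for c9 and c1r and highest for c4b, and each of these 4 genes was separate. In bulk tissue, more cells of a type and more RNA per cell cannot be told apart, here or below.

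Coagulation genes were also higher. Of 24 tested, 22 had a positive log2 fold change (46.2% of all genes did), 18 (75.0%) were separate and higher, and 0 were separate and lower. The median log2 fold change was 0.66, and 0.57 without young replicate 1. Prothrombin (F2), the precursor of the protease that makes fibrin, measured 1966, 3620 and 4068 CPM at 6 weeks and 7514, 7423 and 8722 CPM at 12 weeks. Plasminogen (plg), the precursor of the protease that dissolves fibrin, measured 1936, 3273 and 3727 CPM at 6 weeks and 6631, 6540 and 7447 CPM at 12 weeks. The fibrinogen chain FGG measured 5215, 8991 and 7508 CPM at 6 weeks and 13770, 15763 and 15984 CPM at 12 weeks, and pros1, for the anticoagulant protein S, measured 34.6, 21.5 and 36.5 CPM at 6 weeks and 65.4, 65.8 and 73.7 CPM at 12 weeks. Young replicate 1 was the lowest young library for F2, plg and FGG, and the log2 fold changes of these genes without it were 1.04, 0.98 and 0.88.

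Plasma carriers and acute phase proteins were more mixed. Of 17 genes, 13 had a positive and 4 a negative log2 fold change. Separate and higher were 9 (52.9%), 1 (5.88%) was separate and lower, and the median log2 fold change was 0.50. That median was 0.65 without young replicate 1 and 1.04 without young replicate 3. The gene annotated ITIH1 and described as inter-alpha-trypsin inhibitor heavy chain 3, a chain that binds hyaluronan, measured 991, 1550 and 1900 CPM at 6 weeks and 4073, 4639 and 4726 CPM at 12 weeks. Ceruloplasmin (CP), the copper ferroxidase of plasma, measured 466, 1670 and 2976 CPM at 6 weeks and 7812, 4821 and 6754 CPM at 12 weeks. LECT2, a chemotactic protein from liver, measured 2007, 783 and 1203 CPM at 6 weeks and 6360, 2551 and 3969 CPM at 12 weeks. All 3 genes were separate, and the young libraries of CP spanned a wide range. RBP4, the plasma carrier of retinol, was separate and lower at 1805, 1939 and 2143 CPM at 6 weeks and 1083, 1204 and 1240 CPM at 12 weeks. It was named after its values were seen, and its log2 fold change was -0.74 ± 0.26 (SE, adjusted p = 0.417 by edgeR), or -0.79 without young replicate 1.

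Among 22 apolipoprotein and lipoprotein genes, 7 (31.8%) were separate and higher and 2 (9.09%) separate and lower. The median log2 fold change was 0.23, and 0.31 without young replicate 1. The gene apobb.1, for the large protein of secreted lipoproteins, measured 1639, 1518 and 2215 CPM at 6 weeks and 3685, 3707 and 4280 CPM at 12 weeks. Endothelial lipase (LIPG), which cleaves phospholipids of high density lipoprotein, went the other way at 7.70, 1.90 and 4.24 CPM at 6 weeks and 0.206, 0 and 0.361 CPM at 12 weeks. Several genes with very many counts overlapped between the ages. The apolipoprotein A-I gene apoa1b measured 53550, 82477 and 72376 CPM at 6 weeks and 82181, 95882 and 84399 CPM at 12 weeks, apoa2 measured 79882, 44107 and 44064 CPM at 6 weeks and 34123, 44826 and 44419 CPM at 12 weeks and the transferrin gene tfa measured 23197, 15429 and 18507 CPM at 6 weeks and 21123, 20705 and 24426 CPM at 12 weeks. Hemopexin (hpxa), which binds free heme, was separate at 20419, 38182 and 59633 CPM at 6 weeks and 73302, 88927 and 80624 CPM at 12 weeks, with a log2 fold change of 1.04 ± 0.58 (SE, adjusted p = 0.596 by edgeR), or 0.73 without young replicate 1. An abundant gene without a symbol, described as kininogen-1-like (ENSNFUG00015009620), was separate and lower. It measured 25134, 15537 and 16262 CPM at 6 weeks and 11193, 13661 and 13417 CPM at 12 weeks. Its log2 fold change was -0.57 ± 0.28 (SE, adjusted p = 0.547 by edgeR), or -0.31 without young replicate 1.

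Genes of amino acid and urea metabolism were higher in adult liver in most cases. Of 57 tested, 46 had a positive log2 fold change, 31 (54.4%) were separate and higher, and 2 (3.51%) were separate and lower. The median log2 fold change was 0.77, and 0.61 without young replicate 1, where 35 (61.4%) were separate and higher. At an unadjusted p under 0.05 were 24 of the 57 higher and 0 lower, where 4.48% of all genes were higher and 5.28% lower. In the methionine cycle, bhmt, which uses betaine to turn homocysteine back into methionine, measured 1829, 1882 and 1114 CPM at 6 weeks and 5542, 5130 and 6473 CPM at 12 weeks. The fit gave it a log2 fold change of 1.83 ± 0.28 (SE, adjusted p = 0.0961 by edgeR), or 1.93 without young replicate 1. Cystathionine beta-synthase takes homocysteine towards cysteine instead, and the gene annotated CBS measured 122, 188 and 38.5 CPM at 6 weeks and 912, 706 and 1003 CPM at 12 weeks. For this gene the log2 fold change was 2.91 ± 0.50 (SE, adjusted p = 0.119 by edgeR), or 2.95 without young replicate 1. Both genes were separate, with young replicate 3 the lowest library.

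The genes named here that feed proline, ornithine and glutamate into shared intermediates were higher as well. This route had no list of its own. Ornithine aminotransferase (OAT) measured 18.5, 147 and 33.7 CPM at 6 weeks and 476, 462 and 621 CPM at 12 weeks. Glutamate dehydrogenase (glud1b), which releases ammonia from glutamate, measured 309, 602 and 507 CPM at 6 weeks and 1171, 1055 and 1504 CPM at 12 weeks. The young libraries of OAT were spread widely, with young replicate 2 the highest, and the log2 fold changes were 2.97 ± 0.70 (SE, adjusted p = 0.216 by edgeR), or 2.53 without young replicate 1, for OAT and 1.4 ± 0.33 (SE, adjusted p = 0.209 by edgeR), or 1.17 without young replicate 1, for glud1b. The proline dehydrogenase gene named above belongs to the same route.

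Carbohydrate genes were split by enzyme. Of 45 genes of glycolysis, gluconeogenesis and glycogen, 17 (37.8%) were separate and higher and 4 (8.89%) separate and lower. The median log2 fold change was 0.52. That median was 0.42 without young replicate 1 and 0.34 without adult replicate 3. Enolase (eno1a), of glycolysis, measured 215, 361 and 336 CPM at 6 weeks and 727, 768 and 919.7 CPM at 12 weeks. The gluconeogenic enzyme gene fbp1b measured 1343, 1736 and 865 CPM at 6 weeks and 2416, 2456 and 2837 CPM at 12 weeks. The gene ugp2a, whose enzyme makes the UDP-glucose used for glycogen, measured 509, 1220 and 707 CPM at 6 weeks and 1677, 1576 and 2236 CPM at 12 weeks. All 3 genes were separate. Glucokinase (gck), the liver enzyme that traps glucose after a meal, was named after its values were seen. It measured 25.6, 3646 and 652 CPM at 6 weeks and 55.7, 96.2 and 1.16 CPM at 12 weeks, and only young replicate 1 overlapped the adult libraries. Its log2 fold change was -4.82 ± 1.67 (SE, adjusted p = 0.402 by edgeR) with all libraries and -5.39 ± 1.37 (SE, adjusted p = 0.285 by edgeR, 0.0680 to 0.924 over all alternatives) without young replicate 1.

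Fatty acid genes gave no common direction that held in all settings. For 37 genes of fatty acid synthesis and storage the median log2 fold change was 0.14, but -0.11 without young replicate 1 and -0.24 when libraries were scaled by size alone. Scaling by size alone moved the median of all genes from -0.07 to -0.36. In that list 4 genes (10.8%) were separate and higher and 5 (13.5%) separate and lower, near the shares of all genes. The stearoyl-CoA desaturase gene scdb, which adds a double bond to fatty acids, measured 271, 363 and 555 CPM at 6 weeks and 175, 118 and 63.1 CPM at 12 weeks. Perilipin 2 (plin2), the coat of lipid droplets, measured 147, 371 and 139 CPM at 6 weeks and 75.1, 49.2 and 74.6 CPM at 12 weeks. The gene annotated PNPLA3 is described as patatin-like phospholipase domain-containing protein 2, and both names stand for lipid droplet hydrolases. It was higher at 31.0, 71.8 and 50.7 CPM at 6 weeks and 159, 141 and 245 CPM at 12 weeks. The log2 fold changes of scdb, plin2 and this gene without young replicate 1 were -1.95, -1.94 and 1.57.

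For 37 fatty acid oxidation genes the median log2 fold change was 0.02, with -0.09 without young replicate 1 and -0.34 with size scaling. Separate and higher were 5 (13.5%), and 3 (8.11%) were separate and lower, near the shares of all genes. CPT1B, which moves fatty acids into mitochondria, measured 13.4, 5.83 and 5.79 CPM at 6 weeks and 2.31, 1.62 and 0.762 CPM at 12 weeks. The peroxisomal enzyme gene hsd17b4 measured 96.1, 123 and 127 CPM at 6 weeks and 210.1, 237 and 252 CPM at 12 weeks. These members lay on opposite sides, and both were separate.

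Sterol synthesis genes were lower in adult liver by their median, but the young libraries differed widely here. Of 24 genes, 5 had a positive log2 fold change, 2 (8.33%) were separate and higher and 2 (8.33%) separate and lower, with a median of -0.71. Without young replicate 1 the median was -1.12 and 11 genes were separate and lower (45.8%, against 17.0% of all genes). Without young replicate 2 the median was -0.27. Farnesyl diphosphate synthase (FDPS), at the branch from isoprenoids to sterols, measured 19.8, 859 and 64.5 CPM at 6 weeks and 65.1, 56.5 and 11.8 CPM at 12 weeks. HMGCS1, an early enzyme of the pathway named after its values were seen, measured 29.5, 1167 and 229 CPM at 6 weeks and 427, 316 and 75.7 CPM at 12 weeks. Young replicate 2 stood far above every other library for both genes, and without it the log2 fold changes were 0.08 for FDPS and 1.08 for HMGCS1. Without young replicate 1 they were -3.37 and -1.35. INSIG1, a membrane protein that holds back this pathway when sterols are plentiful, was separate and higher at 21.6, 36.3 and 19 CPM at 6 weeks and 203, 87.8 and 248 CPM at 12 weeks. The log2 fold change of this gene was 2.81 ± 0.56 (SE, adjusted p = 0.137 by edgeR), or 2.70 without young replicate 1.

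Bile acid genes were higher in adult liver by their median. Of 15 tested, 10 had a positive and 5 a negative log2 fold change. At an unadjusted p under 0.05, 3 were higher and 0 lower, against 4.48% and 5.28% of all genes. Of the 15, 9 (60.0%) were separate and higher and 0 separate and lower, with and without young replicate 1, and the medians were 0.78 and 0.51. The receptor gene fgfr4, through which FGF19 acts on mammalian liver, measured 14.7, 3.40 and 4.21 CPM at 6 weeks and 51.0, 56.1 and 68.1 CPM at 12 weeks. That made a log2 fold change of 2.98 ± 0.65 (SE, adjusted p = 0.168 by edgeR) with all libraries and 3.94 ± 0.58 (SE, adjusted p = 0.105 by edgeR, 0.000586 to 0.502 over all alternatives) without young replicate 1, which was the highest young library. ABCB11, the pump that exports bile salts into bile, measured 145, 205 and 230.4 CPM at 6 weeks and 308, 301 and 388 CPM at 12 weeks. The repressor gene nr0b2a, which in mammals is induced by bile acids, measured 6.77, 66.5 and 8.59 CPM at 6 weeks and 98.4, 74.6 and 69.3 CPM at 12 weeks. Young replicate 2 of nr0b2a lay just under the adult libraries, and the log2 fold change was 1.56 ± 0.77 (SE, adjusted p = 0.551 by edgeR), or 1.11 without young replicate 1.

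Genes of the growth hormone and IGF axis were higher in adult liver by their median, with large differences among young libraries in some. Of 27 genes, 17 had a positive and 10 a negative log2 fold change. Separate and higher were 6 (22.2%, against 12.0% of all genes), and 0 were separate and lower. The median log2 fold change was 0.73, with 0.67 without young replicate 1 and 0.30 without adult replicate 1. The growth hormone receptor GHRA measured 33.9, 48.0 and 30.7 CPM at 6 weeks and 53.3, 68.4 and 65.6 CPM at 12 weeks, and stat5a, the factor it activates, measured 6.71, 8.15 and 13.5 CPM at 6 weeks and 23.8, 25.7 and 37.8 CPM at 12 weeks. Both were separate, like IGF1 above. The second IGF binding protein 1 gene, igfbp1, was named after its values were seen and measured 2210, 20 and 989 CPM at 6 weeks and 834, 877 and 846 CPM at 12 weeks. Its adult libraries were close to each other while its young ones ran from 20 to 2210 CPM, and the log2 fold change was -0.33 ± 1.00 (SE, adjusted p = 0.952 by edgeR), or 0.76 without young replicate 1.

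Sex steroid and egg yolk genes (14 tested) had a median log2 fold change of 0.23, which was 0.22 without young replicate 1, 0.76 without young replicate 2 and -0.03 with size scaling. In this list 3 genes (21.4%) were separate and higher and 1 (7.14%) separate and lower. The estrogen receptor gene ESR2B measured 31.4, 18.1 and 33.2 CPM at 6 weeks and 51.5, 43.2 and 60.1 CPM at 12 weeks. It was separate and higher in adult liver, with a log2 fold change of 0.91 ± 0.30 (SE, adjusted p = 0.387 by edgeR), or 1.01 without young replicate 1.

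Hepatocyte transcription factors showed no shared direction. Over 34 genes the median log2 fold change was -0.04, and 0.24 without young replicate 1, with 7 (20.6%) separate and higher and 3 (8.82%) separate and lower. XBP1, which drives genes of the secretory pathway, measured 22.8, 81.3 and 104 CPM at 6 weeks and 339, 299.9 and 305 CPM at 12 weeks. The nuclear receptor gene nr5a2, which acts on bile acid genes, was lower at 75.6, 68.4 and 47.0 CPM at 6 weeks and 28.7, 28.6 and 31.3 CPM at 12 weeks. Both were separate, with log2 fold changes of 2.18 ± 0.66 (SE, adjusted p = 0.336 by edgeR), or 1.77 without young replicate 1, and -1.11 ± 0.28 (SE, adjusted p = 0.250 by edgeR), or -0.96 without young replicate 1. CEBPA, a factor of hepatocyte and fat cell differentiation, measured 2.46, 55.3 and 4.42 CPM at 6 weeks and 2.76, 2.47 and 1.97 CPM at 12 weeks, and young replicate 2 alone was high.

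Of 32 circadian clock genes, 23 had a positive log2 fold change, and 29 did without young replicate 1 (48.4% of all genes). With all libraries 3 were separate and higher (9.38%, against 12.0% of all genes) and 0 lower. The median was 0.31, and 0.45 without that library, where 11 were separate and higher (34.4%, against 17.9% of all genes) and 0 lower. The kinase gene CSNK1E, which marks clock proteins for decay, measured 61.5, 25.1 and 48.6 CPM at 6 weeks and 56.2, 63.3 and 115 CPM at 12 weeks and overlapped through young replicate 1. The labels give no hour of sampling.

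Detoxifying enzymes were higher in adult liver in most cases. Of 27 cytochrome P450 and conjugation genes, 14 (51.9%) were separate and higher and 3 (11.1%) separate and lower. The median log2 fold change was 0.61, or 0.46 without young replicate 1. CYP1A, the classic enzyme induced through the aryl hydrocarbon receptor, measured 29.8, 64.4 and 54.5 CPM at 6 weeks and 204, 233 and 271 CPM at 12 weeks. Its log2 fold change was 2.25 ± 0.41 (SE, adjusted p = 0.130 by edgeR), or 1.99 without young replicate 1. CYP1C2, of the same family, measured 1.96, 2.08 and 2.07 CPM at 6 weeks and 7.10, 6.43 and 5.81 CPM at 12 weeks, and the retinoic acid hydroxylase gene cyp26b1 measured 0.928, 1.24 and 1.26 CPM at 6 weeks and 3.22, 4.45 and 7.14 CPM at 12 weeks. The glutathione transferase gene MGST3 was lower at 136, 65.7 and 63.4 CPM at 6 weeks and 41.6, 48.9 and 45.7 CPM at 12 weeks. All 4 genes were separate.

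Antioxidant genes (23 tested) had a median log2 fold change of 0.10, which was -0.28 with size scaling, 0.16 without young replicate 1 and -0.01 without young replicate 3. Of these genes, 6 (26.1%) were separate and higher and 4 (17.4%) separate and lower. The regulator gene keap1b, whose protein holds back the factor NRF2, measured 8.13, 10.9 and 11.2 CPM at 6 weeks and 25.2, 22.1 and 25.0 CPM at 12 weeks. Peroxiredoxin (prdx1), a peroxide reductase, measured 22.4, 88.4 and 355 CPM at 6 weeks and 41.8, 35.1 and 32.5 CPM at 12 weeks, with young replicate 3 standing high. Immediate early and stress genes (47 tested) had a median of -0.40, and -0.17 without young replicate 1. Separate and higher were 2 (4.26%), and 4 (8.51%) were separate and lower. NFKBIAB, an inhibitor of NF-kB, was separate and higher at 19.5, 10.7 and 23.4 CPM at 6 weeks and 55.6, 43.3 and 40.7 CPM at 12 weeks. GADD45AB, a gene of growth arrest, measured 13.2, 5.1 and 13.2 CPM at 6 weeks and 5.16, 2.61 and 4.09 CPM at 12 weeks. The ages of GADD45AB overlapped.

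Iron and transport genes tended to be higher in adult liver. Of 26 iron genes, 9 (34.6%) were separate and higher and 1 (3.85%) separate and lower. The median log2 fold change was 0.35, which was 0.16 without young replicate 1. The transferrin receptor gene TFR1A, the entry of iron into cells, measured 60.3, 106 and 63.9 CPM at 6 weeks and 157, 292 and 537 CPM at 12 weeks. The metal reductase gene steap4 measured 56.4, 113 and 139 CPM at 6 weeks and 295, 225 and 254 CPM at 12 weeks. Both were separate. Of 38 solute carrier and channel genes of hepatocytes, 12 (31.6%) were separate and higher and 4 (10.5%) separate and lower. Their median was 0.50, and 0.56 without young replicate 1. Next to SLC13A5 above, the glycerol channel gene aqp7 measured 53.9, 71.5 and 64.4 CPM at 6 weeks and 117, 108 and 133 CPM at 12 weeks, with a log2 fold change of 0.91 ± 0.26 (SE, adjusted p = 0.311 by edgeR), or 0.81 without young replicate 1.

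**Figure D3:**
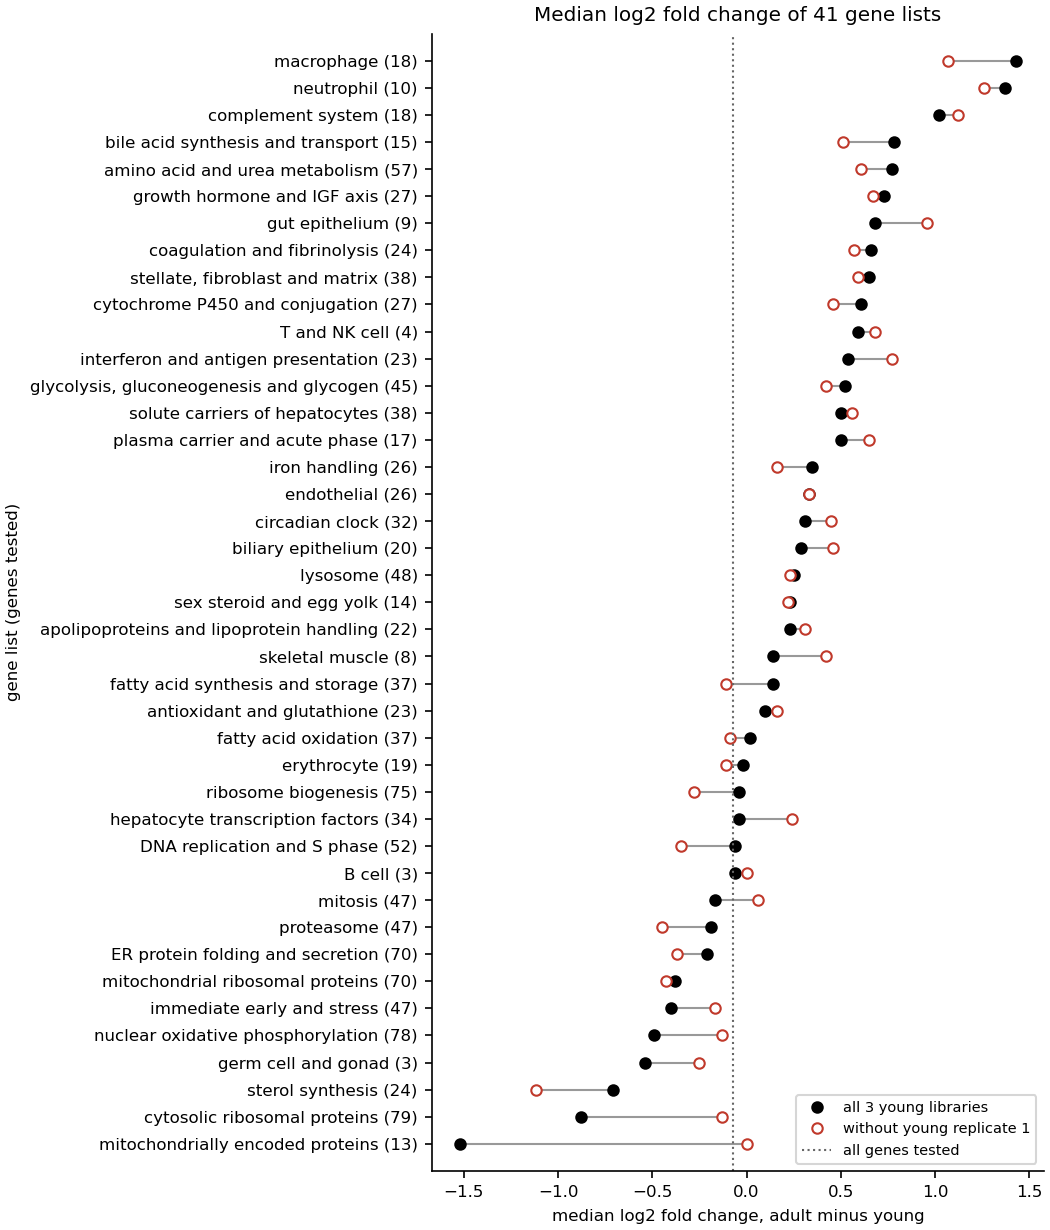
Median log2 fold change, adult minus young, of 41 gene lists (number of genes tested in brackets) with all young libraries (filled) and without young replicate 1 (open), beside the median of all genes (dotted). The 2 pancreas lists, with medians of 5.04 and 7.83, are left out for scale. The mitochondrially encoded proteins move from -1.52 to 0.00 without young replicate 1, while the mitochondrial ribosomal proteins move from -0.38 to -0.43.

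Genes of protein synthesis and mitochondria depended most on young replicate 1. The 79 cytosolic ribosomal protein genes had a median log2 fold change of -0.88, with 3 of 79 above 0, and this median was -0.13 without that library. The stalk protein gene RPLP0 measured 4753, 913 and 1227 CPM at 6 weeks and 545, 538 and 573 CPM at 12 weeks, and the small subunit gene rps9 measured 1027, 126 and 142 CPM at 6 weeks and 72.5, 76.7 and 76.9 CPM at 12 weeks. Young replicate 1 stood several fold above the other young libraries in both, and the log2 fold changes without it were -0.95 and -0.82. Separate and lower were 14 genes of this list (17.7%) with all libraries and 16 (20.3%) without young replicate 1, where 17.0% of all genes were.

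Mitochondrially encoded protein genes (13 tested) had a median of -1.52, and 0.00 without young replicate 1. COX1, the core of cytochrome c oxidase, measured 31137, 4025 and 4297 CPM at 6 weeks and 3253, 3510 and 3992 CPM at 12 weeks. ND2, of complex I, measured 3189, 421 and 462 CPM at 6 weeks and 323, 386 and 357 CPM at 12 weeks. With young replicate 1 left out, their log2 fold changes were -0.21 and -0.31. The 78 nuclear genes of oxidative phosphorylation had a median of -0.49, which was -0.13 without that library. Separate and lower were 26 (33.3%, against 9.68% of all genes) with all libraries and 33 (42.3%, against 17.0%) without it. The assembly factor gene NDUFAF4 was separate and lower whichever young library was counted, at 24.9, 23.6 and 19.5 CPM at 6 weeks and 10.1, 9.67 and 12.4 CPM at 12 weeks. The complex III gene uqcrh measured 64.5, 21.5 and 26.0 CPM at 6 weeks and 12.7, 17.3 and 12.5 CPM at 12 weeks.

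Mitochondrial ribosomal proteins, which translate the mitochondrial genome, were lower in adult liver with and without young replicate 1. Of 70 genes, 4 had a positive log2 fold change with all libraries and 5 without young replicate 1, and the medians were -0.38 and -0.43. The median stayed between -0.44 and -0.25 when any young or adult library was left out. Separate and lower were 20 genes (28.6%, against 9.68% of all genes), and 38 (54.3%, against 17.0%) without young replicate 1. MRPL51 measured 30.1, 29.9 and 26.4 CPM at 6 weeks and 17.1, 18.3 and 15.0 CPM at 12 weeks, and mrpl41 measured 43.3, 41.8 and 30.3 CPM at 6 weeks and 22.3, 23.7 and 20.4 CPM at 12 weeks. Their differences were small but kept to 1 side in every library, with log2 fold changes of -0.78 ± 0.28 (SE, adjusted p = 0.422 by edgeR), or -0.74 without young replicate 1, and -0.80 ± 0.27 (SE, adjusted p = 0.385 by edgeR), or -0.70 without young replicate 1.

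Proteasome, endoplasmic reticulum and ribosome assembly genes had lower summed levels in young replicate 1 than in the other young libraries, although some members did not follow this. The proteasome genes summed to 1156, 1956 and 1753 CPM at 6 weeks and 1480, 1562 and 1363 CPM at 12 weeks. Of 47 proteasome genes, 8 (17.0%, against 9.68% of all genes) were separate and lower with all libraries and 26 (55.3%, against 17.0%) without young replicate 1, with medians of -0.19 and -0.45. Without young replicate 2 the median was 0.05. The core subunit gene PSMB2 measured 48.4, 33.5 and 38.8 CPM at 6 weeks and 24.2, 23.2 and 21.0 CPM at 12 weeks, while PSME4, a proteasome activator, was higher at 33.8, 26.9 and 14.7 CPM at 6 weeks and 72.8, 58.1 and 133 CPM at 12 weeks. Both genes were separate, and in both young replicate 1 was the highest young library.

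For 70 genes of protein folding and secretion in the endoplasmic reticulum, 13 (18.6%, against 9.68% of all genes) were separate and lower with all libraries and 29 (41.4%, against 17.0%) without young replicate 1. Their medians were -0.21 and -0.37, and 0.21 without young replicate 2. CRELD2, a folding factor, measured 52.3, 80.6 and 49.9 CPM at 6 weeks and 27.1, 30.7 and 16.7 CPM at 12 weeks, and dad1, a subunit of the enzyme that attaches sugars to proteins, measured 169, 94.4 and 75.6 CPM at 6 weeks and 60.0, 62.0 and 45.5 CPM at 12 weeks. The 75 ribosome biogenesis genes had medians of -0.04 with all libraries, -0.28 without young replicate 1 and 0.21 without young replicate 2. Of these, 8 (10.7%) were separate and lower with all libraries and 21 (28.0%) without young replicate 1, against the same shares of all genes. Fibrillarin (FBL), which methylates ribosomal RNA, measured 31.3, 24.6 and 26.0 CPM at 6 weeks and 13.7, 13.8 and 13.6 CPM at 12 weeks, and ubtf, a factor for its transcription, measured 18.1, 17.6 and 15.0 CPM at 6 weeks and 32.2, 28.2 and 32.2 CPM at 12 weeks. These 2 genes lay on opposite sides and were both separate.

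Lysosome genes were slightly higher by their median. Of 48, 12 (25.0%) were separate and higher and 2 (4.17%) separate and lower. The median was 0.25, which was 0.23 without young replicate 1 and -0.06 with size scaling. The protease gene ctsf measured 524, 1189 and 1120 CPM at 6 weeks and 2074, 1575 and 2317 CPM at 12 weeks, and CTSS, a cathepsin of antigen presenting cells in mammals, measured 3.82, 7.04 and 9.36 CPM at 6 weeks and 29.8, 41.7 and 19.3 CPM at 12 weeks.

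Few cell cycle genes were separate. Of 52 genes of DNA replication, 1 (1.92%) was separate and higher and 3 (5.77%) separate and lower. Their median of -0.06 ran from -0.40 without adult replicate 2 to 0.13 without young replicate 2. Without young replicate 1 the median was -0.35, 43 of the 52 genes had a negative log2 fold change, and 7 (13.5%, against 17.0% of all genes) were separate and lower. DUT, which removes dUTP, was lower at 9.17, 9.18 and 10.7 CPM at 6 weeks and 3.42, 6.61 and 3.09 CPM at 12 weeks. Of 47 mitosis genes, 2 (4.26%) were separate and higher and 3 (6.38%) separate and lower, with a median of -0.17, or 0.06 without young replicate 1. The checkpoint gene bub1ba measured 13.2, 1.57 and 1.44 CPM at 6 weeks and 1.44, 1.3 and 0.922 CPM at 12 weeks, with young replicate 1 alone standing high.

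**Figure D4:**
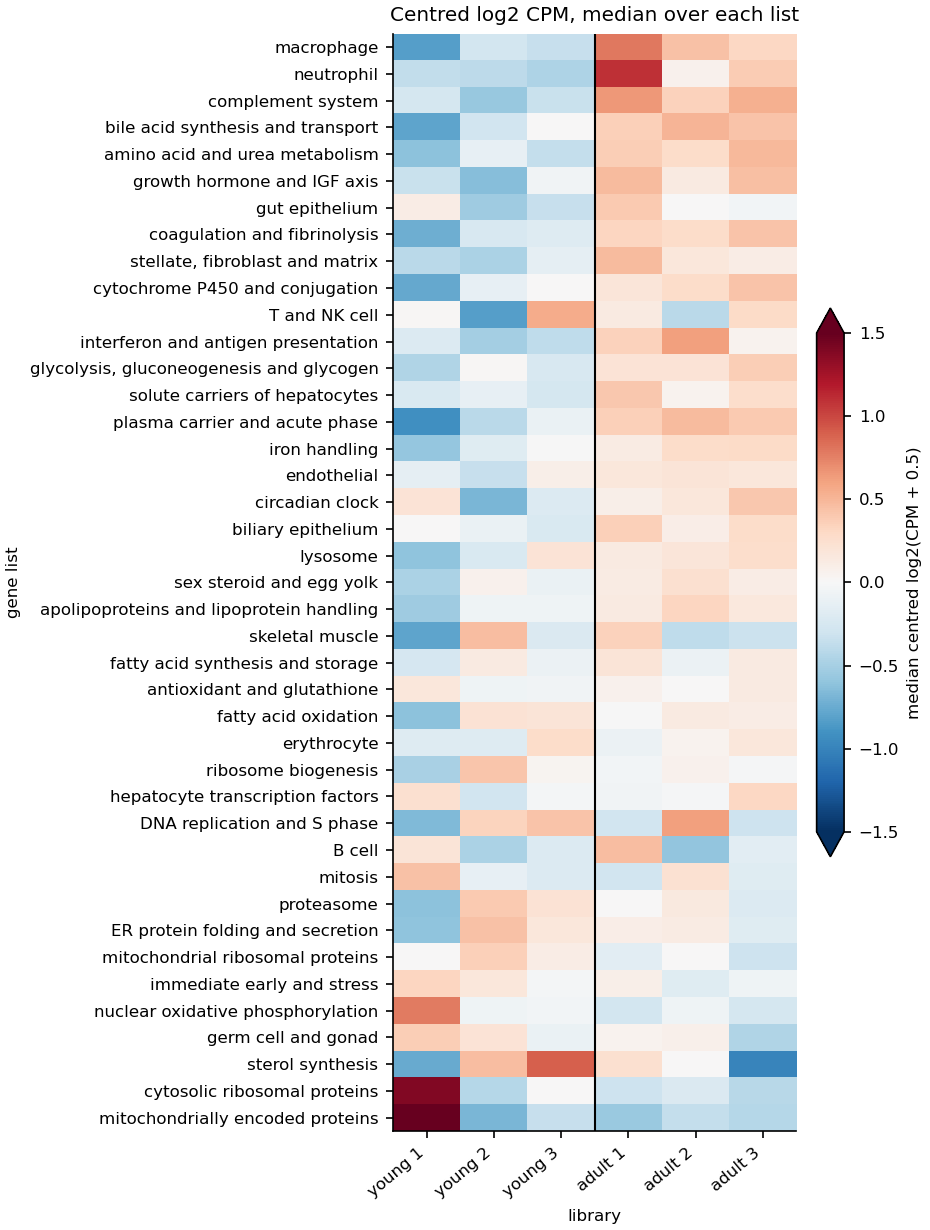
Median over each gene list of log2(CPM + 0.5), centred on each gene's mean over the 6 libraries, in each library (red above, blue below the mean). Colours saturate at 1.5. Young replicate 1 is high for mitochondrially encoded (2.35) and cytosolic ribosomal proteins (1.39) while the 3 adult columns of the complement, coagulation, amino acid and bile acid lists lie above all young ones.

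Genes of the pancreas were far higher in adult samples than in young ones, and unequally so among adult libraries. The 18 exocrine pancreas genes summed to 409, 687 and 2135 CPM in the young libraries and 78515, 6300 and 24170 CPM in the adult ones. Of 15 tested, 12 (80.0%) were separate and higher, and the median log2 fold change was 5.04, or 4.66 without young replicate 1. It was 3.86 without adult replicate 1 and 5.96 without young replicate 3. Carboxypeptidase A1 (cpa1), a digestive enzyme, measured 52.3, 75.2 and 292 CPM at 6 weeks and 11712, 886 and 3618 CPM at 12 weeks. CPB1 measured 22.9, 28.1 and 75.2 CPM at 6 weeks and 3755, 241 and 1009 CPM at 12 weeks and the elastase gene ela2 measured 58.0, 107 and 235 CPM at 6 weeks and 9308, 765 and 3117 CPM at 12 weeks. Each followed the same order, with adult replicate 1 highest and adult replicate 2 lowest of the adult libraries, and reads of such proteases can be split between close copies. The folding enzyme gene pdia2, which mammals express mainly in pancreas, measured 1.69, 7.82 and 17.1 CPM at 6 weeks and 736, 64.8 and 205 CPM at 12 weeks. The genes dpep1 and cpa4 of the list had no count.

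Islet genes were present in adult replicates 1 and 3. Their 20 members summed to 0.710, 5.25 and 2.03 CPM in the young libraries and 950.2, 5.89 and 636 CPM in the adult ones. Insulin (INS) measured 0, 2.54 and 0.351 CPM at 6 weeks and 578, 3.01 and 399 CPM at 12 weeks, and glucagon (GCGB) measured 0, 0.0883 and 0.140 CPM at 6 weeks and 85.2, 0.674 and 47.8 CPM at 12 weeks. Adult replicate 2 lay near the young libraries. The 5 tested genes had a median log2 fold change of 7.83, or 7.43 without young replicate 1, and 15 members did not pass the filter on low counts. How far pancreatic tissue in the adult samples bears on the other results was not tested.

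Most markers of macrophages and neutrophils were higher in adult samples, and most tested markers of lymphocytes overlapped between the ages. The 20 macrophage genes summed to 261 to 362 CPM in young and 514 to 739 CPM in adult libraries, with cd68 the largest part. Of 18 tested, 15 had a positive and 3 a negative log2 fold change, or 14 and 4 without young replicate 1. With all libraries 7 (38.9%) were separate and higher and 0 lower, with a median of 1.43, or 1.07 without young replicate 1. The lysosomal membrane gene cd68 measured 171, 241 and 191 CPM at 6 weeks and 348, 571 and 339.8 CPM at 12 weeks. The growth factor receptor csf1ra, on which macrophages depend, measured 0, 0.751 and 1.09 CPM at 6 weeks and 11.3, 4.45 and 6.30 CPM at 12 weeks. The mannose receptor mrc1b measured 0.327, 1.70 and 0.561 CPM at 6 weeks and 8.58, 9.76 and 11.8 CPM at 12 weeks. C1QA above is also a member. Every library of cd68, csf1ra and mrc1b was on its age's side. The abundant members lgmn and mafb overlapped between the ages. Legumain (lgmn) measured 56.8, 89.1 and 128 CPM at 6 weeks and 85.6, 103 and 116 CPM at 12 weeks. The factor gene mafb measured 14.3, 6.89 and 5.12 CPM at 6 weeks and 5.12, 5.62 and 5.17 CPM at 12 weeks. Their log2 fold changes were 0.15 and -0.72, or -0.09 and -0.18 without young replicate 1.

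The 12 neutrophil genes summed to 14.7 to 16.8 CPM in young and to 26.4 to 312 CPM in adult libraries, with adult replicate 1 at the top. Most of that sum was the gene annotated mpx and described as eosinophil peroxidase-like, which measured 2.46, 5.61 and 4.24 CPM at 6 weeks and 260.4, 8.27 and 11.4 CPM at 12 weeks. Of 10 tested, 4 were separate and higher and 0 lower, with a median of 1.37, or 1.26 without young replicate 1. CSF3R, the receptor for granulocyte growth factor, measured 0, 0.221 and 0.737 CPM at 6 weeks and 6.85, 3.19 and 3.37 CPM at 12 weeks. Lymphocyte genes were scarce. The T and NK cell list summed to 3.53 to 16.2 CPM in young and 7.01 to 11.9 CPM in adult libraries, and the B cell list to 7.29 to 8.90 and 5.93 to 12.0 CPM. The medians of their 4 and 3 tested genes were 0.59 and -0.06, or 0.68 and 0.00 without young replicate 1, and rag1, rag2 and EOMESA had no count. The kinase gene lck measured 0.0546, 0.353 and 0.0351 CPM at 6 weeks and 0.990, 1.26 and 1.48 CPM at 12 weeks. The T cell factor gene tcf7 lay on the other side by its mean at 2.40, 0.287 and 3.26 CPM at 6 weeks and 0.743, 0.584 and 0.401 CPM at 12 weeks, as did the kinase gene fynb at 5.13, 2.30 and 10.1 CPM at 6 weeks and 3.34, 3.15 and 4.25 CPM at 12 weeks. Only lck was separate among these 3 genes.

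Interferon and antigen presentation genes were higher in 19 of 23 cases, with 9 (39.1%) separate and higher and 0 lower. Their median was 0.54, or 0.77 without young replicate 1. The peptide transporter tap2a measured 2.29, 4.64 and 3.51 CPM at 6 weeks and 12.1, 16.6 and 14.5 CPM at 12 weeks, and PSMB10, annotated for an immunoproteasome subunit and described as a beta type-7-like one, measured 4.86, 5.85 and 6.14 CPM at 6 weeks and 11.8, 14.8 and 12.5 CPM at 12 weeks. The invariant chain gene cd74a, a partner of class II molecules in antigen presenting cells, measured 0.873, 2.38 and 3.09 CPM at 6 weeks and 38.5, 11.4 and 10.1 CPM at 12 weeks. All 3 genes were separate, with log2 fold changes of 2.04 ± 0.41 (SE, adjusted p = 0.137 by edgeR), or 1.82 without young replicate 1, 1.21 ± 0.32 (SE, adjusted p = 0.291 by edgeR), or 1.12 without young replicate 1, and 3.23 ± 0.65 (SE, adjusted p = 0.137 by edgeR), or 2.87 without young replicate 1. The macrophage sums given above moved in the same direction, and their part in these values was not tested.

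Matrix, vessel and duct genes varied by member. Of 38 stellate cell, fibroblast and matrix genes, 13 (34.2%) were separate and higher and 2 (5.26%) separate and lower. Their median of 0.65 was 0.34 without adult replicate 1 and 0.59 without young replicate 1. A negative log2 fold change was found for 12 of the 38. Their sum was 1734 to 3735 CPM in young and 3611 to 4223 CPM in adult libraries. Fibronectin (FN1B), which hepatocytes also secrete, measured 1321, 1322 and 1824 CPM at 6 weeks and 3288, 2932 and 3642 CPM at 12 weeks. The basement membrane gene NID1A measured 36.0, 37.8 and 45.8 CPM at 6 weeks and 70.6, 80.4 and 58.4 CPM at 12 weeks, and PLOD1A, which hydroxylates collagen, measured 2.29, 7.31 and 8.98 CPM at 6 weeks and 23.1, 32.9 and 16.9 CPM at 12 weeks. All 3 were separate. The chains of type I collagen, the main collagen of fibroblasts, had lower means in adult liver and overlapped. COL1A2 measured 96.7, 36.8 and 628 CPM at 6 weeks and 79.0, 63.9 and 50.4 CPM at 12 weeks, and col1a1b measured 65.8, 35.0 and 754 CPM at 6 weeks and 131, 76.3 and 65.1 CPM at 12 weeks. Young replicate 3 stood far above every other library for both, and the log2 fold changes were -1.98 ± 0.88 (SE, adjusted p = 0.507 by edgeR), or -2.36 without young replicate 1, for COL1A2 and -1.65 ± 0.93 (SE, adjusted p = 0.603 by edgeR), or -2.12 without young replicate 1, for col1a1b. Without young replicate 3 they were -0.04 and 0.85.

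Endothelial genes (26 tested) had a median of 0.33 with all libraries and 0.33 without young replicate 1, with 16 log2 fold changes above 0 and 10 below. They summed to 148 to 228 CPM in young and 199.9 to 209 CPM in adult libraries, with 5 (19.2%) separate and higher and 0 lower. The VEGF receptor gene kdr measured 6.06, 7.07 and 9.19 CPM at 6 weeks and 21.2, 19.9 and 20.2 CPM at 12 weeks and was separate. The tight junction gene CLDN5B measured 43.1, 10.2 and 20.6 CPM at 6 weeks and 8.71, 12.0 and 12.3 CPM at 12 weeks, and EGFL7, a factor that endothelium secretes, measured 28.6, 12.1 and 15.8 CPM at 6 weeks and 9.53, 13.5 and 9.38 CPM at 12 weeks. Both had lower means in adult liver and overlapped, with young replicate 1 the highest library.

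Biliary genes (20 tested) had a median of 0.29, which was 0.03 without young replicate 3 and 0.46 without young replicate 1, and summed to 962 to 1097 and 1181 to 1378 CPM. Of these, 7 (35.0%) were separate and higher and 2 (10%) separate and lower, where 12.0% and 9.68% of all genes were. The chloride channel gene cftr, which duct cells of liver and pancreas use, measured 0, 0 and 0 CPM at 6 weeks and 2.76, 2.11 and 2.09 CPM at 12 weeks. With no count in any young library, it was at least 71.4-fold higher in adult liver, from 3 counts over the young libraries together. The keratin gene krt94 measured 97.3, 137 and 151 CPM at 6 weeks and 241, 213 and 266 CPM at 12 weeks. Annexin A4 (anxa4), among the most abundant members, was separate and lower at 262, 285 and 259 CPM at 6 weeks and 242, 194 and 204 CPM at 12 weeks.

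Of the remaining cell types, erythrocyte, germ cell and skeletal muscle genes gave no clear order of the ages. Erythrocyte genes (19 tested) had a median of -0.02, or -0.11 without young replicate 1, and summed to 320.4 to 436 CPM in young and 424 to 872 CPM in adult libraries. The heme synthesis gene alas2 measured 34.9, 33.9 and 56.9 CPM at 6 weeks and 26.4, 23.0 and 36.5 CPM at 12 weeks. Germ cell genes summed to at most 4.04 CPM, with 8 of 16 members at 0, and their 3 tested genes had a median of -0.54, or -0.25 without young replicate 1. Skeletal muscle genes summed to at most 49.7 CPM, and the 8 tested had a median of 0.14, which was 0.42 without young replicate 1 and -0.11 with size scaling. Of these 8, 4 had a positive and 4 a negative log2 fold change, and 2 (25.0%, against 12.0% of all genes) were separate and higher and 0 lower. Without young replicate 1, 2 (25.0%) were separate and higher and 3 (37.5%) lower, where 17.9% and 17.0% of all genes were. The calcium-binding gene casq1b was separate at 0.0546, 0.309 and 0.281 CPM at 6 weeks and 1.94, 1.57 and 2.17 CPM at 12 weeks. The parvalbumin gene PVALB1 lay on the other side and overlapped, with a log2 fold change of -2.88. Without young replicate 1 it was separate and lower, at -3.39. Of 22 gut genes, 7 were at 0 in all 6 libraries, cdx4 and 1 of 2 intestinal fatty acid-binding protein genes among them. The other of these, FABP2 (ENSNFUG00015000342), measured 48.2, 12.9 and 26.2 CPM at 6 weeks and 14.7, 10.8 and 13 CPM at 12 weeks and overlapped. The gut list summed to 561 to 643 CPM in young and 856 to 1518 CPM in adult libraries, with chia.4 the largest part. Its 9 tested genes had a median of 0.68, which was 0.08 without adult replicate 1 and 0.96 without young replicate 1. Of these 9, 5 had a positive and 4 a negative log2 fold change. Separate and higher were 2 (22.2%), and 1 (11.1%), tm4sf4 above, was separate and lower. The chitinase gene chia.4 in that list measured 412, 328 and 356 CPM at 6 weeks and 1342, 728 and 1088 CPM at 12 weeks, with a log2 fold change of 1.53 ± 0.30 (SE, adjusted p = 0.137 by edgeR), or 1.62 without young replicate 1.

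**Figure D5:**
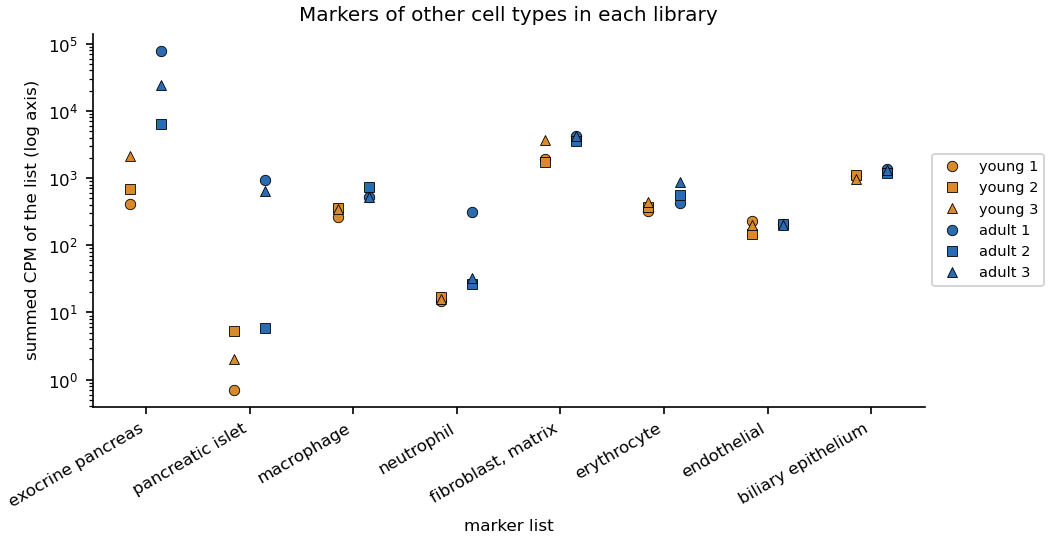
Summed CPM (log axis) of the marker lists of 8 other cell types in each young (orange) and adult (blue) library, with shapes for replicates 1, 2 and 3. The exocrine pancreas sums reach 78515 CPM in adult replicate 1 and at most 2135 CPM in the young libraries, and the macrophage sums of the adult libraries lie above all young ones.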

How the data were processed

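Bulk liver RNA was sequenced after library preparation with the SMART-Seq mRNA Kit, per the labels' protocols. DRAGEN is the tool listed in the submitters' processing notes, with no version. No genome build or annotation is given in the sources used here. The deposited table of 25475 genes holds estimated counts, which the authors made per gene without scaling between libraries, per the file headers. Per the file headers it also holds TPM, values the authors divided by gene length and scaled to a common total, which entered no test here.

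Counts were rounded (change at most 0.5) and tested with edgeR 4.0.16 and limma 3.58.1 in R 4.3.3. The filterByExpr filter kept 13971 genes, and TMM factors scaled the libraries. A robust quasi-likelihood model with 1 mean per age was fitted to all 9 libraries, because the labels give 3 ages and no batch, and the adult minus young contrast was tested. Adjusted p-values (Benjamini-Hochberg) cover all genes tested, and the threshold was 0.05. The SE is the log2 fold change divided by the square root of F. The common biological coefficient of variation was 0.614.

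The 43 gene lists and the genes named were chosen with earlier results of these data known, so lists have no test of their own and are described by counts and medians beside those of all genes. The table itself gave symbols for 14485 genes, and a RefSeq gene table of assembly NfurGRZ-RIMD1 for 865 more. Named were every described gene past the adjusted threshold with or without young replicate 1, and 10 separate genes in each direction with the smallest p and at least 10 CPM in the higher age. Also named were up to 4 members of each list by smallest p, the most abundant markers of other cell types and the genes with most counts, of which the text prints some. The genes RBP4, gck, igfbp1 and HMGCS1 fell outside this rule. Some genes that met the rule are not reported here.

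Alternatives were RLE scaling, library size only, TMM without ribosomal RNA and mitochondrial genes, no filter, DESeq2 1.42.0, limma-voom, a filter at 10 CPM, only the young and adult libraries, the replicate number as a block, and each library left out in turn.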

Additional observations from a re-analysis of the deposited data

How the results depend on the processing

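The number of genes called higher in adult liver, 2 with all libraries, was also 2 under RLE scaling, library size alone, TMM without ribosomal RNA and mitochondrial genes and a filter at 10 CPM. It was 244 with DESeq2, 10 with limma-voom, 12 without a filter on low counts, 0 with the young and adult libraries only and 1 when those were fitted without young replicate 1. With a library left out it ran from 0 (without any old library) to 12 (without adult replicate 2). The number called lower was 144 with DESeq2, 1 without a filter and 0 in all other settings. The cause of these differences was not tested. Genes separate and higher numbered 1681 with all libraries, 835 with a filter at 10 CPM, which tests fewer genes, and 711 with library size alone. They numbered 2035 to 2776 with a young or adult library left out. Genes separate and lower numbered 1353, 772, 2462 and 1748 to 2512 in the same order. The scaling of all libraries was kept for these ranges, so a library fewer could only raise the numbers. Old libraries do not enter them.

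The labels do not say whether replicate numbers pair the libraries. Deviations of same-numbered young and adult libraries from the mean of their age correlated at -0.054, 0.157 and -0.027. With 3 libraries per age, these values cannot decide whether the numbers mark pairs. With the number as a replicate block, edgeR called 0 genes in either direction.

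Of 130 named genes compared under 19 alternatives, 5 took the other sign. The genes lgmn, mafb, anxa4, ncf4, PVALB1 and the kininogen-1-like gene are not among the 130. For igfbp1 the log2 fold change was 1.38 with limma-voom, 0.23 with the replicate block, 0.76 in the fit of young and adult libraries without young replicate 1, and -0.90 to 0.76 with a library left out. HMGCS1 had 0.03 with limma-voom, 0.19 with the replicate block and -1.35 to 1.08 with a library left out. FDPS ran from -3.37 to 0.08 with a library left out, col1a1b from -2.18 to 0.85, and tfa had -0.02 with library size alone. Of 43 list medians, 27 took the other sign under no alternative that gave a value. The mitochondrially encoded proteins were counted among the 27, although their median was 0.00 without young replicate 1. The filter at 10 CPM left some lists without a member. Depth limits genes at a few CPM, such as fgf19 and cftr, most.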
